A study of Mus musculus with 2 samples.

Results

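The genes described here encode the enzymes that build haem: Alas1, Alas2, Alad, Uros, Urod, Cpox, Ppox and Fech. They are 8 of the 21853 protein-coding genes of GENCODE M21 on the main mouse chromosomes. They were chosen by enzyme, with no measured value in the rule, though earlier results of these data were known. The enzyme of the third step is not analysed here. The cells were megakaryocyte-erythroid progenitors (MEP), the bone marrow cells from which platelets and red cells derive, and the assay was ATAC-seq, which reads open chromatin through cutting and tagging of DNA by the transposase Tn5. Both libraries were made from 50000 primary cells of adult males of strain C57BL/6J (5 to 6 weeks old), and the labels name no treatment, transgene or deletion. There is 1 group of 2 libraries, replicates 1 and 2. Their donor entry is the same, and the labels do not say whether the animals were separate. The label of replicate 1 names the sequencers used and that of replicate 2 names none. How the cells were sorted is not given in the sources used here.

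Haem is an iron-containing porphyrin that carries oxygen in haemoglobin, and erythroid cells make far more of it than other cells. The pathway starts in mitochondria, where an ALA synthase joins glycine and succinyl-CoA, continues in the cytosol, and ends in mitochondria with the insertion of iron. Alas1 encodes the ALA synthase of most cells and Alas2 the form of erythroid cells. Alas2 is a target of the erythroid factor GATA1, and introns 1 and 8 of the human gene are known to hold erythroid enhancers. Alad and Uros are each known to have a housekeeping and an erythroid promoter.

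An accessible region is an interval in a deposited peak list, with overlapping peaks merged, and its fold is the authors' value for enrichment over local background at its strongest peak. Regions were read from lists for each library, at a strict level (thresholded on IDR, the irreproducible discovery rate, a measure of how far the ranks of peaks repeat) and at a longer, more lenient level (pseudoreplicated). A conservative list combined both libraries. A promoter was called when a region overlapped any protein-coding start site of the gene or the 1 kb to either side. Distal regions were other regions, away from every protein-coding start, that lay inside the gene or had their summit within 50 kb of its most upstream start. The design has no second group, so no test between conditions was made, and the spread is that between the 2 libraries. All coordinates are on mm10 (GRCm38). Motif matches of a region were counted within 100 bp of its summit. Offsets are from the most upstream start of the gene, in the direction of transcription.

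The sequences below are those on which the comparison of Alas1 with Alas2 and the description of the erythroid motif turn. They are read in the direction of transcription from GRCm38. In all but 2, capitals mark the GATA motif, searched as AGATAA or TGATAA on both strands, so that a match on the opposite strand reads TTATCT or TTATCA. Where CTG (or CAG, on the opposite strand) is also in capitals, it stands 8 bases from the GATA match, an arrangement of an E-box part and a GATA motif that is called the composite here. In the Alas1 sequence, capitals mark the motif of the factor NRF1, searched as GCATGCGC, which at this palindromic site matches on both strands with overlap. In intron 8 of Alas2, capitals mark the KLF motif CCNCNCCC, and the GATA motif was searched there with no match.
Alas1, start region, chr9:106247907-106247936, minus strand: ccgcacccaagGCGCATGCGCggcggtcac
Alas2, promoter, chrX:150547167-150547374, plus strand: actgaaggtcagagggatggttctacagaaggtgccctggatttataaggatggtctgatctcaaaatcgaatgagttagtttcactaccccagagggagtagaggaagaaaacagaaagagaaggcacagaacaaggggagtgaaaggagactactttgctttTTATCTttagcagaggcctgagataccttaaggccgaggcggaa
Alas2, intron 1 region, chrX:150549848-150549877, plus strand: ggggctTTATCTatggtctgCAGgctcagc
Alas2, intron 8 region, chrX:150564735-150564935, plus strand: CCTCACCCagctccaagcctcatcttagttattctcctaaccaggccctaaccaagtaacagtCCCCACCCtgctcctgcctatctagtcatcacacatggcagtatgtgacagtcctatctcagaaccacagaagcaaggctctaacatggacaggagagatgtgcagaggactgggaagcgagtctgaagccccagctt
Alad, intron 1 region, chr4:62516744-62516993, minus strand: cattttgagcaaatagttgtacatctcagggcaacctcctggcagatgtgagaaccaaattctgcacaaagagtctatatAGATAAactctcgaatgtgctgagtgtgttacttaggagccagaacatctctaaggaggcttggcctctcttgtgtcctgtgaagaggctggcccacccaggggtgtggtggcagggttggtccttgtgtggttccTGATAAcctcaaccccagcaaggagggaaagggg
Uros, internal promoter, chr7:133702551-133702580, minus strand: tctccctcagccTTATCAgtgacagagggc
Urod, intron 1 region, chr4:116993709-116993909, minus strand: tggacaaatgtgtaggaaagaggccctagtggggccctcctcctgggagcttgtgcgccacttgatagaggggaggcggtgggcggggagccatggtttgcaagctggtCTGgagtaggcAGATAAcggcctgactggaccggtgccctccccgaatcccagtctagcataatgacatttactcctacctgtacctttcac
Cpox, promoter, chr16:58669958-58670207, plus strand: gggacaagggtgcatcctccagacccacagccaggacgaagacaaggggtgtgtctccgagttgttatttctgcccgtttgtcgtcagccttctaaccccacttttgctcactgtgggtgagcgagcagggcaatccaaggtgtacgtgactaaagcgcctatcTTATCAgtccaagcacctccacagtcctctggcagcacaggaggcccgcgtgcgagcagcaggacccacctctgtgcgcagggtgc
Cpox, upstream region, chr16:58661963-58662163, plus strand: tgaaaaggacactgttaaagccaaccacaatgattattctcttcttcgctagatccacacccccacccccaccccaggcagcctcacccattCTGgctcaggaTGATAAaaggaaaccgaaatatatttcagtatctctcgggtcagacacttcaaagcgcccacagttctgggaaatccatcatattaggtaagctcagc

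With GENCODE starts, the genes of the later enzymes had accessible promoters in both libraries at the strict level. Those of the opening steps did not. Uros, Urod, Cpox, Ppox and Fech were called in both IDR-thresholded lists, which made 5 of 8 members, beside 45.7% of all protein-coding genes. Alas1 was added in both pseudoreplicated lists, for 6 of 8 members beside 56.5% of genes. The same 6 members were called in the conservative list, beside 54.5% of genes. Alas2 and Alad were in neither set. With 8 genes, these counts describe the members and do not set them apart from other genes.

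**Figure D1:**
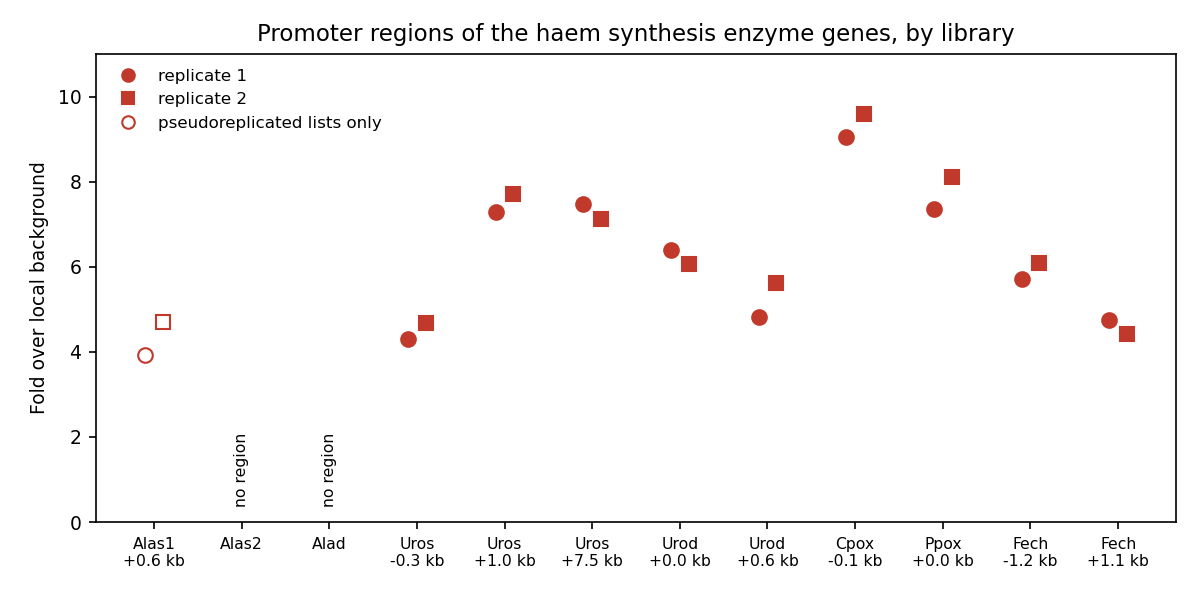
Fold over local background (linear axis) of each member's promoter regions in replicate 1 (circles) and replicate 2 (squares), with the offset from the most upstream start under each name. Filled points were in both IDR-thresholded lists and open points in the pseudoreplicated lists only. Cpox was the highest of the promoter regions in both libraries, at 9.05 and 9.59. Alas2 and Alad had no region at their GENCODE starts in the conservative list or in these lists of either library.

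The pathway opens with the ALA synthases, and their genes differed in where the accessible regions lay. In the conservative list, Alas1 had a weak promoter region and no accessible region elsewhere in the gene. Alas2 had no promoter region and a pair of strong regions inside the gene. The Alas1 promoter region (chromosome 9, 106247109 to 106248489) overlapped exon 1 and had a fold of 3.93 in replicate 1 and 4.71 in replicate 2, a mean of 4.32 ± 0.55 (SD, n = 2). It was in the pseudoreplicated lists of both libraries and in neither IDR-thresholded list. In the conservative list its fold was 4.66, higher than 15.6% of the 13422 promoter regions. Its summit lay 94 bp upstream of a RefSeq start, and the palindromic NRF1 match printed above lay inside the region.

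No region of any of the 12 lists used touched the 1 kb to either side of an Alas2 start. The nearest region edge was 2056 bp from a start in replicate 1 and 2052 bp in replicate 2, which is the edge of the intron 1 region. That region (chromosome X, 150549492 to 150550602, summit 2.44 kb into the gene) had a fold of 12.03 in replicate 1 and 11.9 in replicate 2. It ranked above 96.9% and 94.9% of the distal regions of the respective libraries. Within 100 bp of its summit it held 2 GATA matches, 1 of them in the composite shown above.

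The region in intron 8 (chromosome X, 150564621 to 150565269, 17.5 kb into the gene) was the strongest of all member regions. Its fold was 15.6 in replicate 1 and 15.9 in replicate 2, above 99.7% and 99.5% of distal regions of those libraries. It held no AGATAA or TGATAA within 100 bp of the summit. It held 2 KLF matches and 2 GATA cores with other flanking bases. Both intron regions also lie inside the annotated span of Apex2, a DNA repair gene whose start lies beside that of Pfkfb1, 40.8 kb from that of Alas2, so overlap alone assigns them to neither gene. Alas2 is X-linked and these male cells carry 1 copy of it; what part copy number has in its folds was not tested. The other distal region of Alas2, 31.2 kb upstream, had pseudoreplicated folds of 5.88 and 4.99 and was in neither IDR-thresholded list of a library.

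Alas1 also had 3 distal regions in the conservative list, none of them inside the gene and none with Alas1 as its nearest start. The strongest lay in an intron of Poc1a, a centriole gene, 40.4 kb upstream (chromosome 9, 106288816 to 106289178), with folds of 6.88 and 8.57. The others lay 20.6 kb downstream of the start, with folds of 4.15 and 4.39, and 22.5 kb downstream in exon 2 of Tlr9, an immune receptor gene, with 4.27 and 6.19. The strongest distal region of Alas2 exceeded that of Alas1 by 8.72 fold units in replicate 1 and by 7.38 in replicate 2, a difference of 8.05 ± 0.95 (SD, n = 2). The difference was larger than the spread of either gene's value between the libraries, which had an SD of 1.19 for Alas1 and 0.245 for Alas2. Both libraries have the same donor entry, so this spread is not known to include variation between animals. The count of distal regions was 3 for each gene in the conservative list. For Alas1 and Alas2 in turn it was 1 and 2 in the IDR-thresholded list of replicate 1 and 2 and 2 in that of replicate 2, and 4 and 4, and 6 and 3, in the pseudoreplicated lists.

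**Figure D2:**
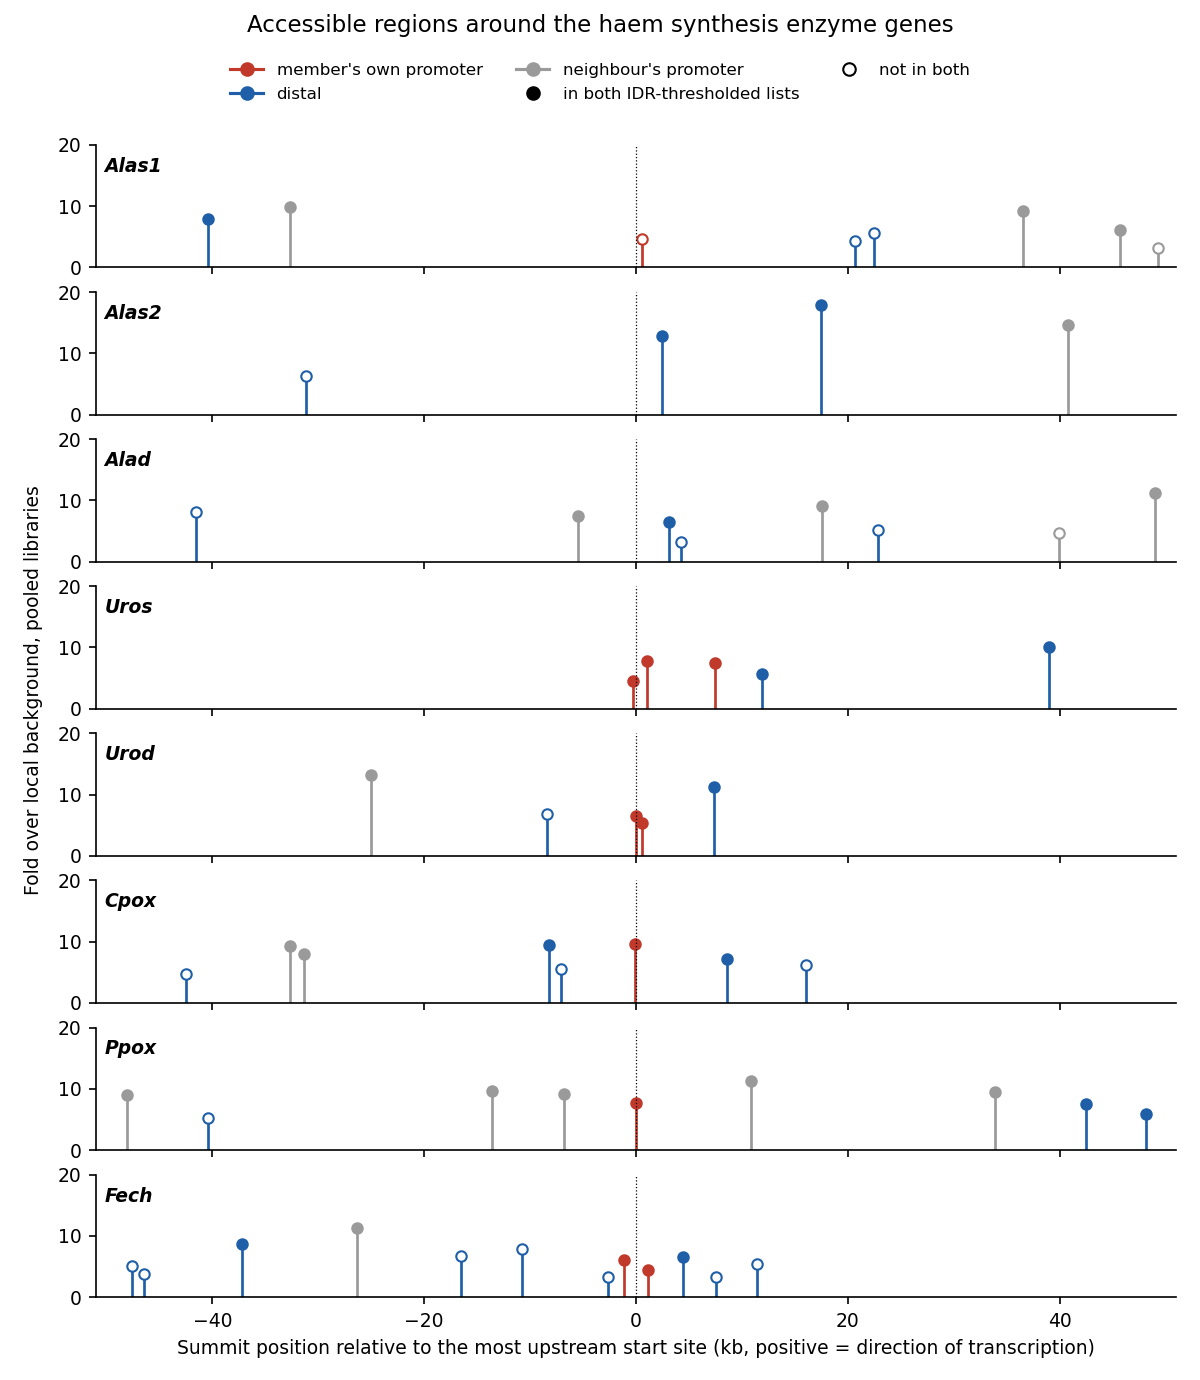
Every region of the conservative list within 50 kb of the most upstream start of each member, or inside it, by distance in kb and pooled fold over local background. Filled circles were in both IDR-thresholded lists. The intron 1 and intron 8 regions of Alas2, with pooled folds of 12.8 and 18.0, stand above the distal regions of the other 7 genes, and no circle marks its start.

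The promoter sequences of the ALA synthase genes also differed. In RefSeq promoter windows of 300 bases, CpG observed over expected was 1.10 and 0.854 in the windows of Alas1 and 0.318 in that of Alas2. Of 20143 windows of the same length, 97.4% and 77.4% had less CpG than those of Alas1, and 32.1% less than that of Alas2. The NRF1 motif was in both overlapping windows of Alas1 and in 3.65% of all windows. The Alas2 window held 1 match of the GATA motif, which 15.4% of windows had. It also held 1 match of the letters TATAAA, found on either strand of 12.1% of windows. In Alas2 the match is on the opposite strand and reads TTTATA in the direction of transcription. It lies in the upstream part of the window, away from the start, and is not read here as a TATA box. Both matches stand in chromatin that no list called accessible.

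Among all 16515 genes with such a window, the share with a promoter called in both IDR-thresholded lists was higher with more CpG, taking the highest window of each gene. It was 5.48% in the lowest quintile, 21.2% in the next, 61.5% in the middle one, and 76.3% and 77.2% in the upper ones. Alas2 was in the quintile with 21.2%. Alad and Alas1 were in the upper ones, where most promoters were called and theirs, at GENCODE starts, were not. Of the members, 7 of 8 had a window in the table.

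**Figure D3:**
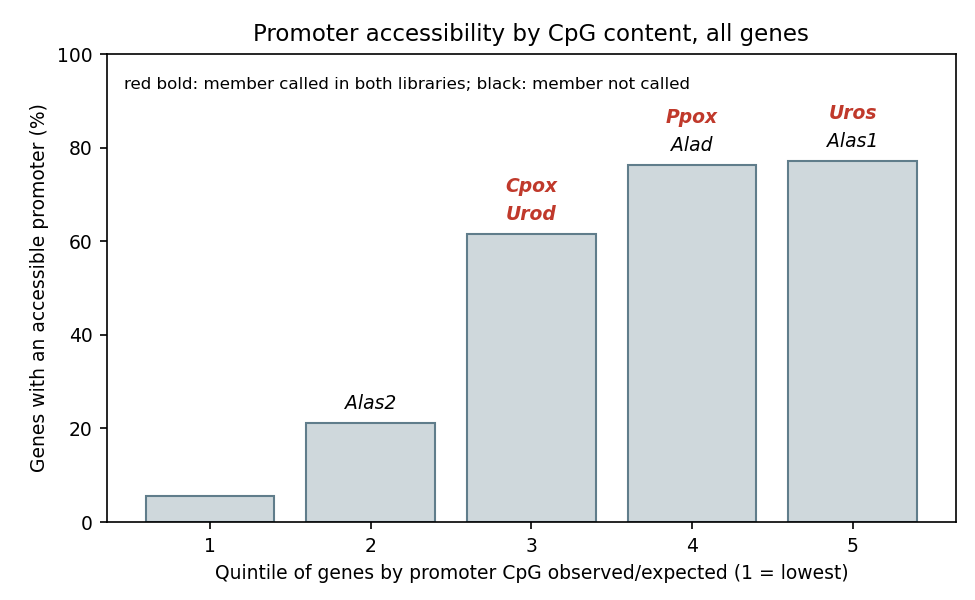
Share of genes (percent, axis from 0) with a promoter called in both IDR-thresholded lists, in quintiles of 3303 genes by CpG observed over expected, with the 7 members that have a promoter window. Alas2 is in the quintile with 21.2% called, and Alad and Alas1 are in those with 76.3% and 77.2%.

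Alad encodes ALA dehydratase, the cytosolic enzyme that makes porphobilinogen. No region of the IDR-thresholded or pseudoreplicated list of either library touched its GENCODE starts. The nearest edge was 2403 bp away in replicate 1 and 2413 bp in replicate 2. A weak region, with a fold of 2.26, reached the start in the replicated and pseudoreplicated lists of the pooled libraries. The accessible region nearest to the start lay in intron 1, 3.13 kb into the gene (chromosome 4, 62516578 to 62517497), with folds of 6.36 and 6.21. RefSeq predicts an Alad transcript that starts at 62516743 inside this region, 50 bp from its summit, and the 250 bases before that start, printed above, hold 2 GATA matches. With RefSeq mRNA starts in place of GENCODE starts, a choice made after this region was seen, Alad was called and Alas1 was not, and the count was 6 of 8 members beside 47.6% of 20503 genes.

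Alad had 3 more distal regions. One in intron 1, 4.25 kb into the gene, had folds of 3.14 and 3.03. Another 22.8 kb downstream in exon 7 of Bspry had 4.08 and 5.17, and 1 in Rgs3, 41.5 kb upstream, had 6.98 and 7.55. Of the 4, the region beside the predicted start was the single one in both IDR-thresholded lists.

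Uros encodes uroporphyrinogen III synthase, which closes the porphyrin ring at step 4. It had 3 promoter regions, and all were in both IDR-thresholded lists. The region over its main starts (chromosome 7, 133708684 to 133709835) had folds of 7.28 and 7.71. The internal promoter in intron 1, 7.48 kb into the gene (133702195 to 133702927), had 7.47 and 7.11, so that neither of them was higher in both libraries. A weaker region upstream of the most upstream GENCODE start had 4.31 and 4.67, and a curated RefSeq start of Uros lies inside it, 62 bp from its summit. This region and the one over the main starts also lie within 1 kb of a start of Bccip, a neighbour read in the other direction. The main and internal promoters differed in sequence: CpG observed over expected was 1.16 in the main RefSeq window and 0.298 in the internal one, and the internal window held a GATA match. Each of the 3 summits had 1 GATA match within 100 bp.

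Distal regions of Uros numbered 2, and both were in both IDR-thresholded lists. That in intron 5, 11.9 kb into the gene (133697936 to 133698867), had folds of 5.53 and 5.72 and 3 GATA matches within 100 bp of its summit. The other lay 39.0 kb away in intron 24 of Edrf1, an erythroid differentiation gene, with folds of 8.71 and 9.94 and no GATA match within 100 bp of the summit.

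Urod encodes uroporphyrinogen decarboxylase, of step 5. Its start lies within 1 kb of that of Hectd3, a ubiquitin ligase gene read in the other direction, and the region there (chromosome 4, 116994284 to 116994628) had folds of 6.40 and 6.05. A second promoter region in intron 1, with its summit 0.604 kb into the gene (116993564 to 116993947), had 4.81 and 5.62. It held the composite printed above, which the region at the start did not. The strongest distal region of Urod lay 7.40 kb from its start, beyond the end of the gene in exon 14 of Zswim5 (116986460 to 116987286), with folds of 10.2 and 10.9 and no GATA match within 100 bp of the summit. A region in exon 18 of Hectd3 had 5.95 and 6.58 and was in the IDR-thresholded list of replicate 1 alone.

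Cpox encodes coproporphyrinogen oxidase, of step 6. Its promoter region (chromosome 16, 58669185 to 58670626) was the strongest of the member promoters in both libraries, with folds of 9.05 and 9.59, and was higher than 71.9% of all promoter regions in the conservative list. It had 2 GATA matches within 100 bp of its summit. Cpox had 5 distal regions, and the strongest lay 8.23 kb upstream in intergenic sequence (58661704 to 58662374), with folds of 9.30 and 8.87, a composite and 5 KLF matches. Cpox was its nearest gene. A region in exon 7 had folds of 5.89 and 7.72. The other 3 were absent from the IDR-thresholded list of replicate 1, where the pseudoreplicated folds ran from 3.79 to 5.02.

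Ppox encodes protoporphyrinogen oxidase, of step 7. It had 1 promoter region (chromosome 1, 171280420 to 171281920), with folds of 7.35 and 8.10, with 4 CCAAT matches and no GATA match within 100 bp of the summit. Ppox lies among closely spaced genes. The promoters of its neighbours Dedd, Ufc1, Usp21 and B4galt3 were accessible within 50 kb, and their pooled folds of 9.04 to 11.2 were all above the 7.72 of Ppox. None of its 3 distal regions had Ppox as nearest gene. One lay in Fcer1g, an antibody receptor subunit gene, with folds of 5.35 and 6.04, and another between genes 40.4 kb upstream, with 4.77 and 4.81.

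Fech encodes ferrochelatase, which inserts iron into protoporphyrin at step 8. Its promoter regions (chromosome 18, 64488864 to 64489389 and 64491033 to 64491579) were modest. The one at the curated RefSeq start, 1.11 kb into the GENCODE gene, had folds of 4.75 and 4.42, and the one upstream had 5.70 and 6.10 and held a composite. Both were in both IDR-thresholded lists, and each had 1 GATA match within 100 bp of its summit.

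Fech had 9 distal regions, more than 96.9% of all protein-coding genes. Of these, 2 were in both IDR-thresholded lists, that in intron 1, 4.39 kb into the gene, with folds of 6.60 and 6.32, and that 37.2 kb upstream, with 7.78 and 8.30. Within 100 bp of the summit, the 3 regions inside Fech all had a GATA match, and 5 of the 9 did. The weaker ones repeated less: 7 of 9 were in both pseudoreplicated lists, and the regions 2.67 kb upstream and 11.4 kb downstream of the start were in that of replicate 2 and not in that of replicate 1.

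Over all members there were 31 distal regions, a mean of 3.875 per gene beside 2.63 over all genes. The median was 3 beside 2 over all genes, whose quartiles were 0 and 4. Alas1, Alas2 and Ppox had 3 each, Alad 4, Uros and Urod 2 each, Cpox 5 and Fech 9. Inside the member itself lay 10, inside another gene 13, and between genes 8. For 16 of them the nearest start was that of the member, and 30 of 31 were also within 50 kb of another protein-coding gene. Of the 31, 13 were in both IDR-thresholded lists, beside 38.9% of all 32778 distal regions, and 29 were in both pseudoreplicated lists, beside 90.9%. Both shares were near the background. Replicate 2 alone had 7 at the strict level and replicate 1 alone had 1, and 10 were in neither. Their pooled folds ran from 3.20 to 18.0 with a median of 6.24, beside a median of 6.36 over all distal regions.

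The median of the members' distal regions thus lay close to that of all distal regions, and the intron 1 and intron 8 regions of Alas2 were the highest of the 31. The 10 promoter regions of members had a median pooled fold of 6.31, beside 7.53 over all promoter regions. The 18 promoters of neighbouring genes in the same windows had a median of 9.31.

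**Figure D4:**
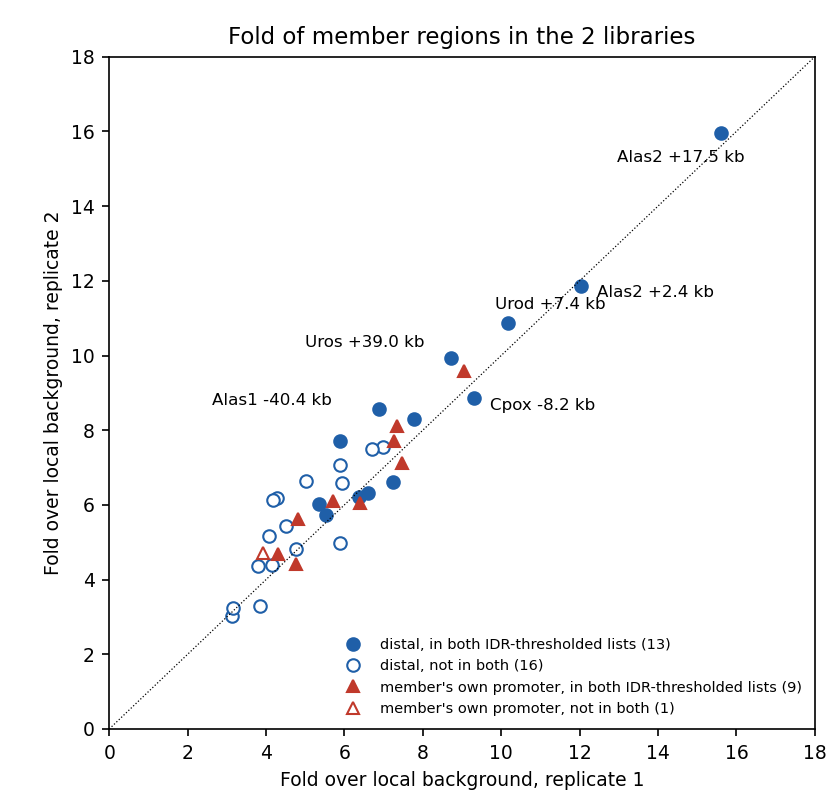
Fold over local background in replicate 1 (horizontal) and replicate 2 (vertical), on linear axes, for the 29 distal regions (circles) and 10 promoter regions (triangles) of members found in both pseudoreplicated lists. Filled symbols were in both IDR-thresholded lists, and the dotted line marks equal folds. The points lie along the line, and the intron 8 region of Alas2, at 15.6 and 15.9, is farthest out.

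The libraries gave like folds at the same regions. Over the 22 promoter and distal regions of members in both IDR-thresholded lists, the fold in replicate 2 divided by that in replicate 1 had a median of 1.06 and ran from 0.913 to 1.31. Replicate 2 was higher at 14 of the 22. Over all 22455 regions in both lists the median was also 1.06, the value over the whole lists and that over the members being alike.

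GATA matches were counted separately at promoter and distal regions of members. At promoter regions, 7 of 10 had a GATA match within 100 bp of the summit, beside 11.1% of the 13422 promoter regions of the conservative list. These were the 3 regions of Uros, the 2 of Fech, that of Cpox and the intron 1 region of Urod, so they came from 4 genes and are not independent. The composite was in 2 of 10, those of Urod and Fech, beside 1.09%. The summits of these regions of Urod and Fech lay 548 bp and 1177 bp from the nearest start. The promoter regions behind the shares of 11.1% and 1.09% were not matched for that distance. For the GATA motif the contrast was smaller in the RefSeq promoter windows of 300 bases. There, 3 of 10 windows of members had a match, beside 15.4% of all windows. Fech had no such window. Other distances from the summit were not tried at promoter regions. At distal regions, 14 of 31 had a GATA match, beside 42.4% of all, which is near the background, and 2 of 31 had the composite, beside 5.29%. The KLF motif was in 7 of 31 distal regions beside 25.4%, and in 5 of 10 promoter regions beside 57.2%. The motifs were chosen with earlier results of these data known. A match describes the letters and is no evidence of a bound factor.

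Genes that act around the pathway were read from a list of 25 made for substrate supply, transport, breakdown and sensing. Of these, 23 of 25 had a promoter in both IDR-thresholded lists, and 25 of 25 in both pseudoreplicated lists. The shares over all genes were the 45.7% and 56.5% given above. The list was chosen with earlier results of these data known. Its promoters were not matched for CpG content, and the share called at the strict level ran from 5.48% to 77.2% across the CpG quintiles. The counts therefore do not set these genes apart from other genes. All 6 genes of succinyl-CoA and glycine supply were called, 7 of 8 of mitochondrial iron and porphyrin transport, 6 of 7 of haem export, import and breakdown, and 4 of 4 sensors of haem and iron. The exceptions were Abcb10, a mitochondrial transporter, with folds of 3.57 and 3.67, and Slc48a1, a haem importer, with 3.74 and 3.37. Blvra, a biliverdin reductase, was highest with 13.5 and 15.1, followed by Sucla2, a subunit of succinyl-CoA synthetase, with 11.6 and 14.0. Shmt2, which makes glycine in mitochondria, was the lowest of the called genes in replicate 1, with 4.65 and 4.96.

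The label of the cells was read against marker genes. At promoters, 7 of 8 erythroid and MEP markers were called in both IDR-thresholded lists, with Gata1 at folds of 4.69 and 5.12, and the other one, Gfi1b, was in the pseudoreplicated lists. None of 4 megakaryocyte markers passed the strict level, and 3 of 4 were in both pseudoreplicated lists. None of 4 granulocyte and macrophage, 4 lymphoid and 4 hepatocyte markers passed it either. Of these, Flt3 was in both pseudoreplicated lists. Apoa1 was in that of replicate 1 alone, with a fold of 6.94, and Csf3r in that of replicate 2 alone, with 4.97. Over all genes, 45.7% were called in both IDR-thresholded lists and 56.5% in both pseudoreplicated lists. The markers were not matched for CpG content, so these counts describe them and do not set them apart from other genes. Counts of distal regions did not separate erythroid and MEP markers from granulocyte and macrophage markers, with a median of 4.5 per gene in each. The median was 4 for megakaryocyte markers and 1.5 for lymphoid and for hepatocyte markers. The IDR-thresholded lists held 26353 regions in replicate 1 and 28142 in replicate 2, and the conservative list held 46200. The number of reads behind them is unknown, so that a region missing from a list was not detectable at this depth and is not shown to be closed.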

How the data were processed

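ATAC-seq was measured in 2 libraries of 1 group. The authors deposited peak lists on mm10, per the read-me texts, with a fold per peak (a ratio over local background, as its column and values show), a −log10 p-value and, in ranked lists, a score that is the −log10 global IDR. The deposited fold was not scaled between lists, and the deposited −log10 p grows with depth. Per the read-me texts, lists came from filtered alignments and pooled lists from both libraries. Which aligner and peak caller were run, and how Tn5 offsets were treated, is not given in the sources used here.

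Peaks that overlapped or touched were merged within each of 12 lists, on the 21 main chromosomes, and carry the values of their strongest peak by p. Exon and intron numbers refer to the longest coding transcript. Starts were those of GENCODE M21. Sequences and promoter windows (250 bases before to 50 after a start) came from GRCm38 and RefSeq's tables. The members, gene lists and motifs were chosen with earlier results of these data known. All 8 members are named, and neighbours where a counted region lies in or at them; of other haem genes, at most 6 (highest, lowest and not called). Gene and region counts carry no p-value. With 2 libraries in 1 group nothing was tested, and the smallest exact p for 2 against 2 values would be 0.333. The functions were tested on simulated regions. Python 3.11.15, pandas 2.3.3 and numpy 2.4.6 were used. Alternatives covered list, window, overlap, start set, fold and each library left out.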

Additional observations from a re-analysis of the deposited data

How the results depend on the processing

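Of 33 alternatives, 19 left a value within 1.5 times of that reported, or within 1 SD for the difference between Alas2 and Alas1, and 14 moved it. A count could not reverse, so reversal was possible only for the 6 alternatives of that difference, and 0 reversed it. Of those, the pseudoreplicated lists and the 500 bp and 2 kb promoter windows gave an unchanged 8.05, so they are no separate check. The 5 promoters called became 2 (Cpox and Ppox) in the upper 50% of regions by fold, beside 27.7% of all genes, and stayed 5 without replicate 1 or without replicate 2, beside 47.9% and 47.7%. The 31 distal regions became 65 in the replicated list, 13 in the upper 50% by fold, 20 within 25 kb, 52 within 100 kb and 16 by nearest start, and 14 to 20 when 1 library was left out (20 without replicate 1, 14 without replicate 2). The 13 seen in both IDR-thresholded lists became 29 in the pseudoreplicated lists, 6 in the upper 50% by fold, and 14 to 20 in the list of 1 library. The 14 distal regions with GATA became 9 within 50 bp of the summit (30.0% of all distal regions), 27 with any base beside GATA (70.9% of all), and 2 of 13 in the upper 50% by fold, beside 44.4% of all distal regions there. A stricter or shorter list or window has fewer regions by construction; the cause of the GATA change in the upper 50% was not tested. The difference between Alas2 and Alas1 kept its direction, at 7.38 to 8.72 with 1 library left out (alternatives added after seeing the data). It could not be computed within 25 kb or in the upper 50% by fold, where Alas1 had no distal region in at least 1 library. No paired analysis was possible because there is 1 group. The unknown depth limits which weak regions were called.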
